A study of Rattus norvegicus with 18 samples.

Results

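The levels of 40 genes of skeletal muscle, from filament proteins to their regulators, were measured in 18 samples of the rat tongue. The genes form a list of muscle genes given by name, drawn up with earlier results of these data known, and its rule sets no threshold on a measured value. All 40 of 40 were measured, 1 of them (Mylpf) under the array's newer symbol Myl11. They are 40 of the 14217 genes that the array names with a probe set of their own, and where a gene had several probe sets the one with the highest mean log2 signal over the 18 samples was used. By known use, 12 members are typical of fast fibres, 7 of slow fibres and 21 of neither alone.

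The samples came from male Sprague Dawley rats that drank distilled water with 0.002% 4NQO (4-nitroquinoline oxide, a DNA-damaging carcinogen) daily for up to 22 weeks, or distilled water alone as controls. The 3 stages were normal (controls), dysplasia and SCC (squamous cell carcinoma), the treated animals being sacrificed from week 14 to week 22 as tongue lesions appeared, and 3 samples per stage were taken from each of 2 layers. Epithelia were peeled off with dispase, and fibroblasts were the cells of the underlying connective tissue that collagenase released and that attached during a short plating. Each sample pooled 3 rats and was hybridised to 1 Affymetrix rat expression array. Nothing in the sources used here shows that the 3 samples of a group were worked up separately, and p-values therefore cover only the spread seen among them, some of which may be technical.

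Skeletal muscle contracts when thick filaments of myosin pull on thin filaments of actin, and calcium binding to troponin on the thin filament permits it. The tongue is made mostly of skeletal muscle, which lies directly under the connective tissue of its mucosa. Fast and slow fibres use different isoforms of myosin, troponin and the calcium pump, and the transcription factors Myod1 and Myog switch on this gene programme through E-boxes in muscle promoters, together with MEF2 and serum response factor (SRF).

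The promoters of 4 members are printed because these genes stand for 4 roles in the results, namely Myog (regulator), Ckm (muscle creatine kinase), Mb (myoglobin) and Acta1 (skeletal actin). Each sequence is read 5′ to 3′ on the gene's own strand, from 250 bases before to 50 bases after the start used in the RefSeq promoter table, build GRCr8. For Ckm that start lies inside the annotated gene, downstream of its outermost start. Capitals mark the E-box CANNTG and strict forms of the MEF2 site and of the CArG box (the SRF site), searched on both strands. The E-box count includes the variant CAGCTG. Looser variants of the MEF2 site and the CArG box were not searched and stay in lower case. In the Myog promoter, a lower-case run differs only in its last base from the MEF2 match of Smpx. A CArG-like run early in the Acta1 sequence is also unmarked. Missing capitals therefore do not show that such a site is absent.
Myog, chr13:48297226-48297525, plus strand: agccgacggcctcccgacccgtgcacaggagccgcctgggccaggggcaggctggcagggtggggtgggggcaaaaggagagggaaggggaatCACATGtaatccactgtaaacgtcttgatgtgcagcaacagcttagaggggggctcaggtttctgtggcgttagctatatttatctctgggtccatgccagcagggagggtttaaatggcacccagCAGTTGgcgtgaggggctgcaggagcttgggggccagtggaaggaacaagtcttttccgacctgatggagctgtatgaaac
Ckm, chr1:88189211-88189510, plus strand: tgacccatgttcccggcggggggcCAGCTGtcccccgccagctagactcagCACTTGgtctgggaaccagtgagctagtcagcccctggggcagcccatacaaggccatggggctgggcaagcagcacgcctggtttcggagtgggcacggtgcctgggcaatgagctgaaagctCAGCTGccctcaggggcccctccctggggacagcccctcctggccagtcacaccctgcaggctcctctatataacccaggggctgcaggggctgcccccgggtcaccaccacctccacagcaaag
Mb, chr7:110647693-110647992, minus strand: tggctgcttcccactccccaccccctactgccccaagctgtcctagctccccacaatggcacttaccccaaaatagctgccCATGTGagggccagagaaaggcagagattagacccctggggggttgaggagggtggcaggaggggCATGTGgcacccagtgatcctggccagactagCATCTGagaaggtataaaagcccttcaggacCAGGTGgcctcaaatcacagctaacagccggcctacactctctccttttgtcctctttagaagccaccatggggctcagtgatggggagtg
Acta1, chr19:68784145-68784444, minus strand: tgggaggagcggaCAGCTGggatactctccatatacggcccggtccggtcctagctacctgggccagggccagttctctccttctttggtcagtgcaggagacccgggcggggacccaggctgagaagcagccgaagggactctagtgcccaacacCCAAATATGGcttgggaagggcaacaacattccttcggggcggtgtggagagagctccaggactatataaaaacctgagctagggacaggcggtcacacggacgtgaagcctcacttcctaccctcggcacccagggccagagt
The capitals show 2 E-boxes in the Myog promoter, 3 in that of Ckm, 4 in that of Mb, and 1 E-box with 1 CArG box in that of Acta1. Of the 40 members, 32 matched a promoter of the RefSeq table. CANNTG was in 29 of these 32 (90.6%), against 71.6% of all 27457 promoters of the same length, and CAGCTG in 13 of 32 (40.6%), against 15.1%. The strict form of the MEF2 site was in 3 of 32 (9.38%), against 0.605% of all. That of the CArG box was in 3 of 32 (9.38%), against 1.64%. These matches are descriptions of letters and not of bound sites.

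Values are log2 of the deposited linear intensities, and a difference of 1 on this scale is a doubling. A call means an adjusted p under 0.05 in limma with Benjamini-Hochberg adjustment over 31042 probe sets. Of the members, 10 of 40 had a mean log2 signal above 7, the level used as a filter on dim probe sets in an alternative. Because a probe's brightness depends on its sequence, only changes of 1 gene between samples are compared and never levels between genes. In whole samples of this kind, fewer muscle cells and less muscle RNA per cell cannot be told apart.

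Both layers held RNA of several cell types. Over 17 epithelial markers the mean log2 signal per sample was 10.38 to 12.61 in fibroblasts and 12.60 to 12.95 in epithelia, and over 16 fibroblast markers it was 11.26 to 12.63 in fibroblasts and 5.63 to 10.86 in epithelia. Krt14, the keratin of basal epithelium, was at 12.88 to 14.13 in the 9 samples labelled fibroblasts, so these samples were not fibroblasts alone. Normal fibroblasts 3 stood apart, with Krt14 at 12.88, against 13.70 and 13.71 in the other normal fibroblasts, and Cd68, a macrophage marker, at 7.79, against 11.66 and 11.97. Over all probe sets, fibroblast samples 1 and 2 of a stage correlated at r of 0.992 to 0.994, and each of them correlated with the third sample at 0.961 to 0.976. The poly-A controls, bacterial transcripts that the labelling protocol adds to the RNA, had median log2 signals of 12.13, 11.63 and 8.13 in normal fibroblasts, 11.94, 11.88 and 11.71 in dysplasia fibroblasts and 10.23, 9.57 and 11.14 in SCC fibroblasts, against 7.45 to 8.15 in epithelia. Aligning the arrays on 45 spike-in probe sets, or on the 18 hybridization controls alone, moves every gene of an array by the same amount, so directions below hold on the deposited scale and relative to the median of all probe sets.

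Where the muscle genes were high is shown in the map of all 40 members over the 18 samples.

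**Figure D1:**
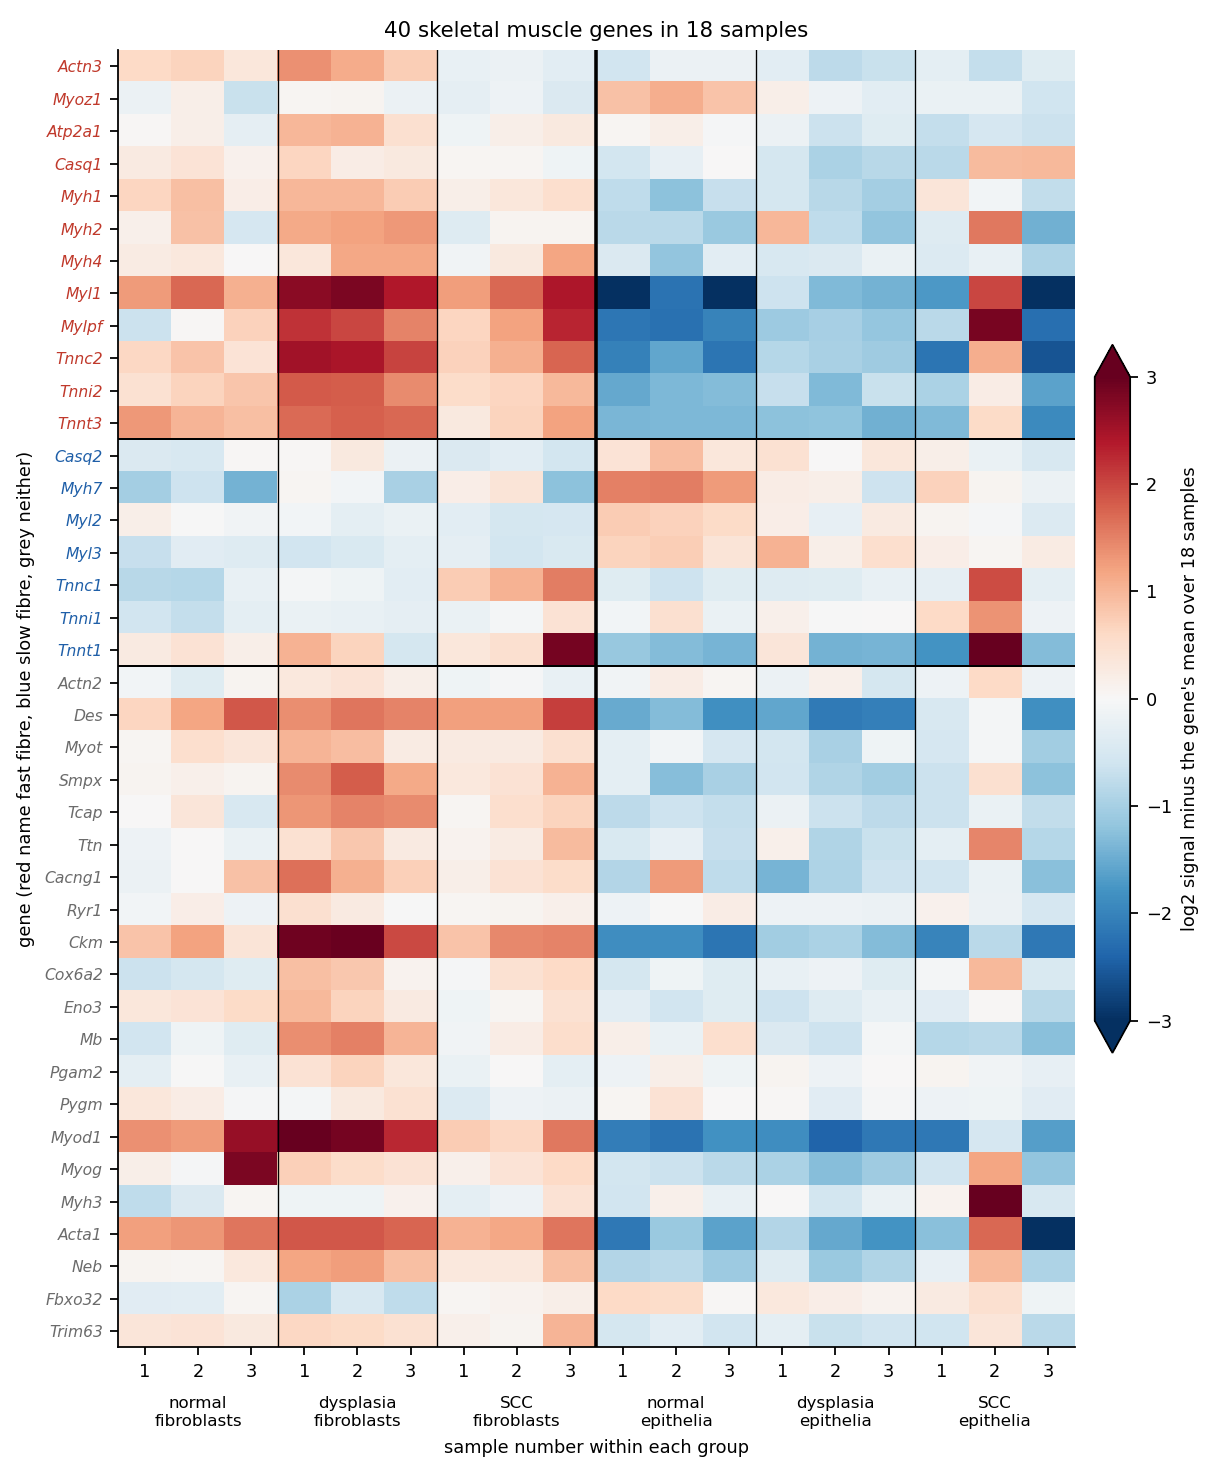
Log2 signal of the 40 muscle genes (vertical axis, fast fibre genes on top, then slow, then neither) in the 18 samples (horizontal axis, by group and sample number), coloured by the difference from each gene's mean over the 18 samples. Red cells gather in the fibroblast samples for most fast fibre genes, and in SCC epithelia 2. That sample was highest of the 9 epithelia for 23 of the 40 genes (57.5%, against 14.4% of all probe sets). Among the 9 fibroblast samples, dysplasia 1, dysplasia 2 and SCC 3 were highest for 11, 12 and 10 genes (27.5%, 30% and 25%). They were highest for 9.02%, 9.01% and 9.25% of all probe sets. Dysplasia 3 was highest for 2 genes (5%, against 7.44%).

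The mean log2 signal of the 12 fast fibre genes per sample lay between 7.22 and 7.62 for normal, 8.10 and 8.36 for dysplasia, and 7.18 and 7.78 for SCC fibroblasts. Dysplasia fibroblasts thus lay above all 6 other fibroblast samples on the deposited scale. For the 7 slow fibre genes the means were 5.75 to 5.88 in normal, 5.80 to 6.23 in dysplasia and 6.21 to 6.50 in SCC fibroblasts, a different order in which the range of dysplasia overlapped those of normal and of SCC. The 21 other members followed the fast genes, with 6.36 to 6.72 in normal, 6.94 to 7.28 in dysplasia and 6.44 to 6.93 in SCC fibroblasts. In epithelia the fast genes averaged 5.85 to 6.04 in normal, 6.10 to 6.52 in dysplasia and 5.62 to 7.59 in SCC samples.

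**Figure D2:**
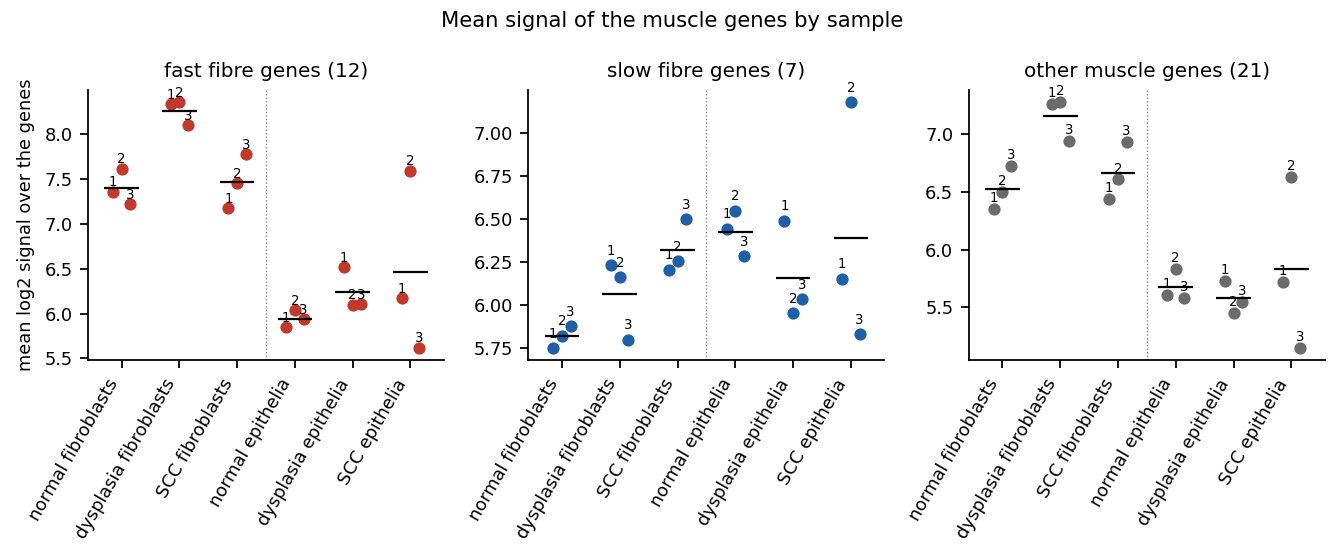
Mean log2 signal (vertical axis) over the 12 fast fibre genes, the 7 slow fibre genes and the 21 other muscle genes in each sample of the 6 groups (horizontal axis); points are samples with their numbers and bars are group means. Fast fibre genes peak in dysplasia fibroblasts (8.10 to 8.36) on the deposited scale. Among fibroblasts the slow fibre genes have their highest mean in SCC (6.21 to 6.50), a range that overlaps dysplasia (5.80 to 6.23). SCC epithelia 2 lies far above the other epithelia in all 3 panels, although only 3 of the 7 slow genes were highest in that sample.

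In dysplasia against normal fibroblasts, 37 of the 40 muscle genes were higher on the deposited scale, by a median of 0.50 log2 units against -0.04 over all probe sets. Aligned on the spike-in controls, 14 of 40 were higher and the median was -0.29, against -0.83 over all probe sets, so that the members lay 0.54 above that median under each alignment. The call was reached by 1 member, Mb, of 40 (2.5% against 0.116% of all probe sets called higher), and by 0 lower (0.0548% of all probe sets). With the sample number as a block, 8 members were called higher (Mb, Ckm, Tnnc2, Tnni2, Neb, Pgam2, Tcap and Smpx), against 2.35% of all probe sets. At an unadjusted p under 0.05 in limma there were 20 members higher (8.26% of all probe sets) and 1 lower (9.78%), and the methods' t-test after adjustment called 0 in either direction. All 3 dysplasia samples lay above all 3 normal samples for 21 members (10.2% of all probe sets) and below them for 1 (13.3%). By fibre type, 12 of 12 fast genes were higher with a median of 0.77, 9 of them with no overlap, whereas 6 of 7 slow genes were higher with a median of 0.30, 1 with no overlap.

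Mb encodes myoglobin, the oxygen store of muscle fibres. Its log2 signal was 9.89, 10.01 and 9.51 in dysplasia fibroblasts, against 7.92, 8.36 and 8.13 in normal fibroblasts. It rose (log2 change 1.67 ± 0.21, adjusted p = 0.0214), and the lowest dysplasia sample lay above the highest normal one. The call was lost when any of 5 samples was left out (adjusted p 0.0610 to 0.135 without normal 1 or 2, dysplasia 1 or 2, or SCC 2).

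None of the 5 other genes of energy supply passed the threshold, and their changes ranged from 0.05 to 1.80. Ckm, the creatine kinase that regenerates ATP, had 9.69, 9.72 and 8.74 in dysplasia fibroblasts, against 7.63, 7.96 and 7.16 in normal fibroblasts (log2 change 1.80 ± 0.32, adjusted p = 0.0724). The groups did not overlap, and dysplasia 3 was the lowest of its group by about 1 log2 unit. Cox6a2, the muscle form of a cytochrome oxidase subunit, was at 7.30, 7.22 and 6.50 in dysplasia against 5.76, 5.89 and 6.04 in normal fibroblasts (log2 change 1.11 ± 0.24, adjusted p = 0.110). Pgam2, the muscle phosphoglycerate mutase of glycolysis, had log2 change 0.66 ± 0.15, adjusted p = 0.119, while Eno3 (beta-enolase) and Pygm (glycogen phosphorylase) had 0.20 and 0.05. The 6 energy genes were all higher, with a median of 0.89.

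Among thin filament genes, the fast Tnnc2 and Tnni2 had the largest changes. Tnnc2, the fast calcium-binding troponin C, had 10.10, 10.03 and 9.61 in dysplasia fibroblasts, against 8.21, 8.44 and 7.99 in normal fibroblasts (log2 change 1.70 ± 0.27, adjusted p = 0.0532). Tnni2, the fast inhibitory subunit, was at 10.07, 10.05 and 9.66, against 8.68, 8.91 and 9.06 in normal fibroblasts (log2 change 1.04 ± 0.18, adjusted p = 0.0703). Neither pair of groups overlapped, and both adjusted p-values stayed above the threshold. Tnnt3, the fast tropomyosin-binding subunit, had log2 change 0.67 ± 0.22, adjusted p = 0.186. The slow partners had smaller log2 changes, of 0.46 for Tnnc1, 0.30 for Tnni1 and 0.10 for Tnnt1. Acta1, the skeletal actin, was at 11.44, 11.43 and 11.33 in dysplasia fibroblasts, against 10.81, 10.89 and 11.19 in normal fibroblasts (log2 change 0.44 ± 0.17, adjusted p = 0.240), and Neb (nebulin, the ruler of thin filament length) had log2 change 0.96 ± 0.19, adjusted p = 0.0926.

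Among the 9 motor genes, the fast light chains had the largest changes, and 0 of 9 passed the threshold, with 3 at an unadjusted p under 0.05 in limma and 0 past the methods' t-test. Mylpf, the fast regulatory light chain, had the largest log2 change of the 40, with 9.35, 9.21 and 8.69 in dysplasia against 6.54, 7.23 and 7.89 in normal fibroblasts (log2 change 1.86 ± 0.45, adjusted p = 0.124), and its normal samples spread over more than 1 log2 unit. Myl1, the fast essential light chain, was at 10.98, 11.10 and 10.68 in dysplasia against 9.56, 10.01 and 9.35 in normal fibroblasts (log2 change 1.28 ± 0.29, adjusted p = 0.119), again without overlap. For the fast heavy chains the changes were 1.04 (Myh2, type IIa), 0.70 (Myh4, type IIb) and 0.35 (Myh1, type IIx), and the 5 probe sets of Myh1 gave 0.35 to 0.72. Myh7 (slow heavy chain), Myl3 and Myl2 (slow light chains) had 0.69, 0.04 and -0.21, and Myh3, the embryonic heavy chain, 0.34.

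Of the 8 genes of the Z disc, which anchors thin filaments, and of its links, all 8 were higher with a median of 0.49. Tcap, the titin cap, was at 7.94, 8.11 and 8.02 in dysplasia fibroblasts, against 6.62, 6.97 and 6.12 in normal fibroblasts (log2 change 1.45 ± 0.23, adjusted p = 0.0532). Smpx, a small costamere protein, had 5.96, 6.34 and 5.67 in dysplasia against 4.61, 4.68 and 4.62 in normal fibroblasts (log2 change 1.35 ± 0.22, adjusted p = 0.0624). Both genes separated the groups without passing the threshold. The changes of Ttn (titin), Actn3 (the fast fibre alpha-actinin), Actn2, Myot (myotilin), Des (desmin, the muscle intermediate filament) and Myoz1 (calsarcin of fast fibres) were 0.62, 0.55, 0.43, 0.42, 0.26 and 0.21. The 5 calcium genes had a median of 0.34, with Atp2a1 (the fast calcium pump SERCA1) at 0.85 and Cacng1 (a calcium channel subunit) at 0.91, and with Casq2, Ryr1 (the calcium release channel) and Casq1 (calsequestrin) at 0.34, 0.26 and 0.13.

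Neither myogenic regulator passed the threshold. Myod1, the myoblast determination factor, was at 8.65, 8.02 and 7.42 in dysplasia fibroblasts, against 6.52, 6.45 and 7.77 in normal fibroblasts (log2 change 1.12 ± 0.43, adjusted p = 0.233). The ranges overlapped through normal 3. Myog, the differentiation factor whose promoter is printed above, was at 6.69, 6.52 and 6.41 in dysplasia against 6.15, 5.94 and 8.80 in normal fibroblasts (log2 change -0.42 ± 0.63, adjusted p = 0.745), with normal 3 highest of all 18 samples. The atrophy ubiquitin ligases had log2 change -0.53 ± 0.16, adjusted p = 0.174 for Fbxo32 (atrogin-1), the 1 member below normal in all 3 samples, and 0.19 for Trim63 (MuRF1). Of the myoblast markers besides Myod1, Cdh15 (M-cadherin) was measured, at 9.51, 9.31 and 8.09 in dysplasia fibroblasts, against 7.21, 7.16 and 8.18 in normal fibroblasts (log2 change 1.46 ± 0.39, adjusted p = 0.148).

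Cell type markers moved in the same comparison. All 17 of 17 epithelial markers were higher in dysplasia fibroblasts on the deposited scale (median 0.66), and the epithelial mean was 12.02 to 12.57 in dysplasia and 10.38 to 12.19 in normal fibroblasts. All 16 of 16 fibroblast markers were lower (median -0.60), as were 14 of 15 macrophage markers (median -1.15), while 7 of 8 neutrophil markers were higher (median 0.94). The fibroblast mean was 12.28 to 12.63 in normal and 11.41 to 12.35 in dysplasia fibroblasts, and the macrophage mean 9.40 to 11.77 and 9.22 to 11.10. Both of these overlapped between the groups, whereas the neutrophil mean did not (7.01 to 7.31 and 7.85 to 8.10). The part of these markers in the muscle gene values was not tested. The count of calls turned on the third samples, with 26 members called without the third fibroblast sample of each stage, 9 without dysplasia 3 alone and 6 without SCC 3 alone, all of them higher, whereas 0 were called without normal 1, normal 2, dysplasia 1, dysplasia 2 or SCC 2. Of all probe sets, 12.54% were called higher and 13.98% lower without the third sample of each stage, against 0.116% and 0.0548% with all samples. With spike-in alignment 0 members were called.

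**Figure D3:**
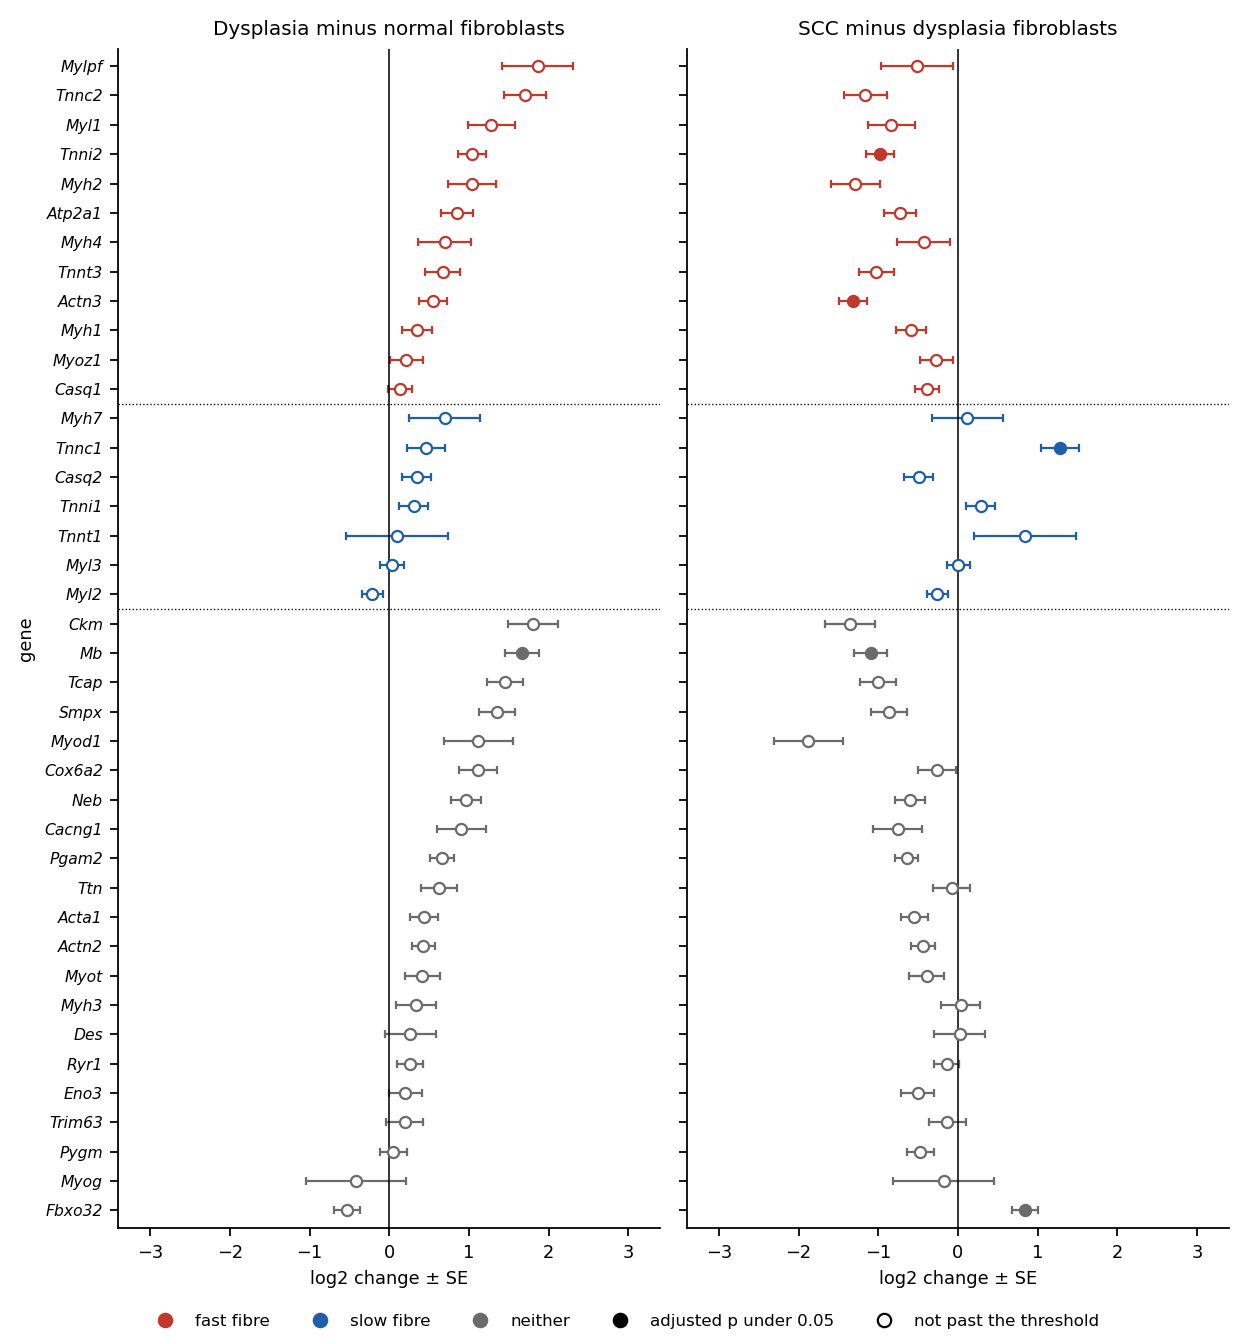
Log2 change with its SE (horizontal axes) of the 40 muscle genes (vertical axis, grouped as fast, slow and neither), for dysplasia minus normal fibroblasts on the left and SCC minus dysplasia fibroblasts on the right; filled points passed an adjusted p of 0.05. On the deposited scale 37 of 40 points lie above 0 on the left and 32 of 40 below 0 on the right, and both panels share the dysplasia samples; aligned on the spike-in controls 14 of 40 lie above 0 on the left and 2 of 40 below 0 on the right.

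In SCC against dysplasia fibroblasts, 32 of 40 members were lower on the deposited scale, by a median of -0.48 against -0.01 over all probe sets. Aligned on the spike-in controls 38 of 40 were higher with a median of 0.85, against 1.32 over all probe sets, and aligned on the hybridization controls 29 of 40 were higher with a median of 0.35, against 0.82, so relative to all probe sets the members lay 0.47 below under each alignment. The test called 3 members lower (7.5% against 0.322% of all probe sets) and 2 higher (5% against 1.52%). At an unadjusted p under 0.05 there were 22 lower (7.99% of all probe sets) and 2 higher (9.39%), and 21 lay below all dysplasia samples (11.7% of all probe sets) and 3 above them (13.5%). All 12 fast genes were lower on the deposited scale with a median of -0.78, whereas 5 of 7 slow genes were higher with a median of 0.12. This comparison shares the dysplasia samples with the one before, so the opposite signs are not separate evidence.

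Actn3, the alpha-actinin of fast fibres, was at 6.06, 6.11 and 5.98 in SCC fibroblasts, against 7.66, 7.39 and 7.03 in dysplasia fibroblasts, and fell (log2 change -1.31 ± 0.18, adjusted p = 0.00844). Mb fell as well, to 8.38, 8.72 and 9.03 in SCC fibroblasts, against 9.89, 10.01 and 9.51 in dysplasia fibroblasts (log2 change -1.09 ± 0.21, adjusted p = 0.0375). Tnni2 was at 8.78, 8.87 and 9.2 in SCC against 10.07, 10.05 and 9.66 in dysplasia fibroblasts and fell (log2 change -0.98 ± 0.18, adjusted p = 0.0313). For these 3 genes the highest SCC sample lay below the lowest dysplasia sample. With spike-in alignment their changes turned to 0.02, 0.24 and 0.36.

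A slow fibre gene and an atrophy gene rose. Tnnc1, the troponin C of slow fibres, had 6.90, 7.17 and 7.68 in SCC fibroblasts, against 6.07, 5.9982 and 5.82 in dysplasia fibroblasts (log2 change 1.28 ± 0.24, adjusted p = 0.0329). Fbxo32, the ubiquitin ligase atrogin-1, was at 5.10, 5.13 and 5.21 in SCC fibroblasts, against 4.09, 4.55 and 4.27 in dysplasia fibroblasts (log2 change 0.84 ± 0.16, adjusted p = 0.0388). Both groups were separate, the SCC samples lying above. Within the troponin C pair the fast Tnnc2 was at 8.28, 8.65 and 9.32 in SCC against 10.10, 10.03 and 9.61 in dysplasia fibroblasts (log2 change -1.16 ± 0.27, adjusted p = 0.0697), a change in the other direction that did not pass the threshold. Fast Tnnt3 had log2 change -1.02 ± 0.22, adjusted p = 0.0557, and the slow Tnnt1 and Tnni1 had 0.85 and 0.28.

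Several large changes did not pass. Myod1 was at 5.93, 5.78 and 6.73 in SCC fibroblasts, against 8.65, 8.02 and 7.42 in dysplasia fibroblasts (log2 change -1.88 ± 0.43, adjusted p = 0.0704), the largest change of the 40, and the groups did not overlap. Ckm was at 7.62, 8.21 and 8.26 in SCC against 9.69, 9.72 and 8.74 in dysplasia fibroblasts (log2 change -1.35 ± 0.32, adjusted p = 0.0728). Myh2 had log2 change -1.29 ± 0.31, adjusted p = 0.0770, Tcap log2 change -1.0044 ± 0.23, adjusted p = 0.0699 and Smpx log2 change -0.86 ± 0.22, adjusted p = 0.0965. Myog had -0.18 and Des 0.02, close to 0 beside the other genes.

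The neutrophil markers were all higher in SCC than in dysplasia fibroblasts on the deposited scale (8 of 8, 3 called, median 1.49), their mean being 9.17 to 9.57 in SCC and 7.85 to 8.10 in dysplasia fibroblasts. The macrophage markers were higher for 14 of 15 (median 0.98). The 3′ to 5′ difference of the beta-actin probe sets, which grows with RNA degradation, was 1.20 ± 0.06 in SCC and 1.78 ± 0.21 in dysplasia fibroblasts (SD, n = 3 each). Their part in the muscle gene values was not tested.

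The 5 calls of SCC against dysplasia fibroblasts leaned on single samples, with 0 members called without dysplasia 2 or SCC 1, 1 without dysplasia 1 or SCC 2, 2 without normal 1 or normal 2, 9 without SCC 3 and 10 without normal 3, and 24 without the third sample of each stage (2 higher and 22 lower). Without the third sample of each stage, 8.81% of all probe sets were called higher and 7.36% lower. Each of the 5 calls was lost without at least 1 sample, Actn3 without 2 of 9 (adjusted p 0.0542 to 0.0570), Tnni2 without 5, Mb without 6, Tnnc1 without 7 and Fbxo32 without 8. With the sample number as a block, which treats same-numbered samples as pairs, Pgam2 was also called (log2 change -0.65, adjusted p = 0.0331).

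In SCC against normal fibroblasts, 26 of 40 members were higher on the deposited scale, with a median of 0.12 against -0.05 over all probe sets, and 37 of 40 were higher aligned on the spike-in controls. The test called 2 members higher (5% against 7.82% of all probe sets) and 2 lower (5% against 7.43%), shares below those of all probe sets. The median was 0.00 over the 12 fast genes and 0.59 over the 7 slow genes. Tnnc1 rose, with 6.90, 7.17 and 7.68 in SCC fibroblasts, against 5.30, 5.28 and 5.92 in normal fibroblasts (log2 change 1.75 ± 0.24, adjusted p = 0.00408), and all 3 SCC samples lay above. Cox6a2 rose too, with 6.37, 6.86 and 7.0002 in SCC against 5.76, 5.89 and 6.04 in normal fibroblasts (log2 change 0.85 ± 0.24, adjusted p = 0.0455). Actn3 fell to 6.06, 6.11 and 5.98 in SCC fibroblasts, against 6.88, 6.95 and 6.62 in normal fibroblasts (log2 change -0.77 ± 0.18, adjusted p = 0.0240), and Myl2, the slow regulatory light chain, fell to 5.02, 4.8 and 4.83, against 5.51, 5.32 and 5.23 in normal fibroblasts (log2 change -0.47 ± 0.13, adjusted p = 0.0457). The sign of the Myl2 change turned to 0.07 aligned on the spike-in controls and to 0.24 on the hybridization controls, and its second probe set gave -0.02.

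Of these 4 genes, the call of Cox6a2 was lost without any of 8 samples (adjusted p 0.0548 to 0.149), that of Myl2 without any of 7 (0.0634 to 0.155) and that of Actn3 without any of 4 (0.0720 to 0.0867), while Tnnc1 kept its call without each sample. With the sample number as a block in limma, Cox6a2 was not called (adjusted p = 0.0530). In that fit Myh7 (log2 change 0.81, adjusted p = 0.0340) and Tnni1 (0.59, adjusted p = 0.0380) were called higher. For Myh7, SCC 3 at 5.14 lay within the normal range of 4.94 to 5.75. Its second probe set was at 3.88, 4.06 and 3.80 in SCC against 4.21, 4.08 and 3.49 in normal fibroblasts, without separation. The count was 1 without normal 1, normal 2, SCC 1 or SCC 2, 2 without dysplasia 1 or dysplasia 2, 5 without normal 3, and 10 without the third sample of each stage (5 higher and 5 lower). In the same comparison 8 of 8 neutrophil markers were higher (7 called, median 2.21), with means of 9.17 to 9.57 in SCC and 7.01 to 7.31 in normal fibroblasts, and 16 of 16 fibroblast markers were lower (3 called, median -0.85). The beta-actin 3′ to 5′ difference was 1.20 ± 0.06 in SCC and 1.74 ± 0.26 in normal fibroblasts (SD, n = 3 each). The part of these in the muscle gene values was not tested.

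**Figure D4:**
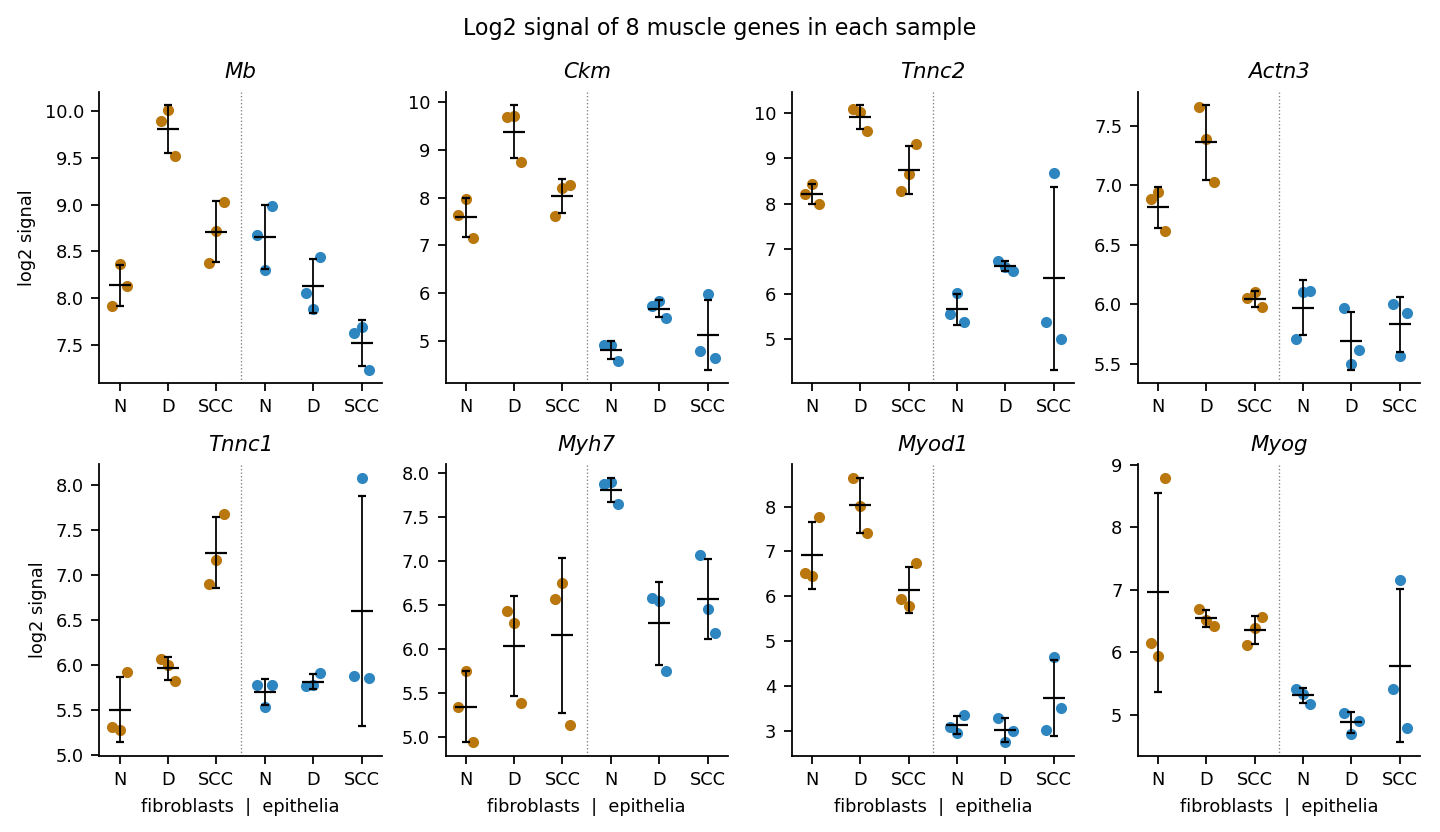
Log2 signal (vertical axes) of Mb, Ckm, Tnnc2, Actn3, Tnnc1, Myh7, Myod1 and Myog in every sample, by stage (N normal, D dysplasia, SCC) and layer (horizontal axis, fibroblasts left and epithelia right); points are samples, with bars for the mean and SD of 3. Mb is highest in dysplasia fibroblasts (9.51 to 10.01), Tnnc1 in SCC epithelia 2 and SCC fibroblasts, Myh7 in normal epithelia (7.64 to 7.90), and Myog in normal fibroblasts 3 (8.80).

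In epithelia the shares of muscle genes called with disease were below those of all probe sets in SCC and in dysplasia against normal. In SCC against normal epithelia, 6 members fell (15% against 17.3% of all probe sets called lower), with 0 called higher in limma (12.6% of all probe sets), 1 higher at an unadjusted p under 0.05 (17.6%) and 0 by the methods' t-test, which called 2 lower. The median change was 0.25, against -0.09 over all probe sets, and -0.14 without SCC epithelia 2. Myoz1, the calsarcin of fast fibres, was at 7.42, 7.42 and 7.03 in SCC epithelia, against 8.50, 8.70 and 8.48 in normal epithelia (log2 change -1.27 ± 0.16, adjusted p = 0.000978). Mb was at 7.63, 7.69 and 7.24 in SCC epithelia, against 8.68, 8.30 and 8.99 in normal epithelia (log2 change -1.14 ± 0.22, adjusted p = 0.00520), and Myh7, the slow heavy chain, at 7.06, 6.46 and 6.18, against 7.87, 7.90 and 7.64 in normal epithelia (log2 change -1.24 ± 0.27, adjusted p = 0.00988). In each of the 3 genes all SCC samples lay below all normal ones.

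The other 3 members that fell were Atp2a1 (log2 change -0.69 ± 0.14, adjusted p = 0.00643), Myl2 (log2 change -0.79 ± 0.18, adjusted p = 0.0104) and Casq2, the slow and cardiac calsequestrin (log2 change -0.73 ± 0.22, adjusted p = 0.0335). The call of Casq2 was lost without any of 5 samples (adjusted p 0.0505 to 0.105), and its second probe set gave 0.55. The second probe sets of Myh7 and Myl2 gave -0.31 and -0.18, smaller than those used. Leaving out SCC epithelia 3 gave 11 calls (6 higher and 5 lower). Of the markers, 14 of 15 for macrophages (12 called, median 2.72) and 15 of 16 for fibroblasts (4 called, median 2.54) were higher in SCC than in normal epithelia, the macrophage means being 7.64 to 9.92 in SCC and 6.25 to 6.51 in normal epithelia. The 3′ to 5′ difference of the Gapdh probe sets was 0.182 to 0.241 in SCC and 0.017 to 0.076 in normal epithelia. Their part in the muscle gene values was not tested.

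In dysplasia against normal epithelia, 2 members fell (5% against 7.54% of all probe sets called lower), and 0 were called higher in limma (7.0%), with 1 higher at an unadjusted p under 0.05 (13.6%) and 1 by the methods' t-test. Myh7 was at 6.58, 6.54 and 5.75 in dysplasia epithelia, against 7.87, 7.90 and 7.64 in normal epithelia (log2 change -1.51 ± 0.27, adjusted p = 0.00958). Myoz1 was at 7.8, 7.47 and 7.32 in dysplasia against 8.50, 8.70 and 8.48 in normal epithelia (log2 change -1.03 ± 0.16, adjusted p = 0.00616). Both genes separated the groups. Fast genes did not move together, since the fast Myoz1 fell while the fast Myl1 was higher. Myl1 was at 7.66, 6.95 and 6.87 in dysplasia against 4.22, 6.07 and 4.28 in normal epithelia (log2 change 2.30 ± 1.26, adjusted p = 0.25). Ckm, typical of neither fibre type alone, was at 5.72, 5.82 and 5.47 against 4.90, 4.91 and 4.57 in normal epithelia (log2 change 0.87 ± 0.31, adjusted p = 0.0948). Neither Myl1 nor Ckm passed the threshold. Without SCC epithelia 2, which enters through the shared estimate of the spread, Ckm, Myl1 and Tnnc2 were called higher and the count was 5. The median over the members was -0.02, against -0.06 over all probe sets. Macrophage markers were higher for 13 of 15 (3 called, median 1.03), with means of 6.94 to 7.69 in dysplasia and 6.25 to 6.51 in normal epithelia, and the Gapdh difference was 0.137 to 0.172 in dysplasia and 0.017 to 0.076 in normal epithelia. The part of these was not tested.

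In SCC against dysplasia epithelia, limma called 0 members higher and 0 lower, against 0.0129% of all probe sets in each direction, and the methods' t-test also called 0. At an unadjusted p under 0.05 there were 3 higher (5.98% of all probe sets) and 1 lower (8.21%). Without SCC epithelia 3, 1 member was called, Des (log2 change 1.65, adjusted p = 0.0170).

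The SCC epithelia were spread widely, with sample 2 often highest and sample 3 often lowest. Sample 3 was the lowest of the 9 epithelia for 16 of 40 members (40%, against 15.3% of all probe sets). Sample 2 was the highest of the 9 epithelia for 23 of 40 members (57.5%, against 14.4% of all probe sets), and it lay over 1 log2 unit above the mean of SCC epithelia 1 and 3 for 20 of 40 (50%, against 4.62% of all probe sets). Acta1 was at 8.34, 11.30 and 4.72 in SCC epithelia 1, 2 and 3, and Myl1 at 6.57, 10.29 and 4.24. Mylpf was at 6.38, 10.04 and 4.93 and the slow Tnnt1 at 2.96, 8.41 and 3.45 in the same order. Myh3, the embryonic heavy chain, had 5.42, 8.34 and 4.84, and Myog 5.40, 7.15 and 4.79. In each of these 6 genes sample 2 was highest and the other SCC epithelia lay more than 1 log2 unit lower.

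All 8 thin filament members were over 1 log2 unit higher in SCC epithelia 2, as were both myogenic regulators and 4 of 9 motor genes, but 0 of 5 calcium genes. Of the 55 other skeletal muscle genes described below, 8 (14.5%) were over 1 log2 unit higher in that sample, with a median difference of 0.09, against 0.97 for the members. Fibroblast markers (15 of 16), endothelial markers (9 of 9) and macrophage markers (11 of 15) were over 1 log2 unit higher in the same sample, and epithelial markers were not (0 of 17). Over the 16 fibroblast markers the mean was 6.93 to 10.86 in SCC epithelia, the highest value being that of sample 2. Their part in the muscle gene values was not tested.

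**Figure D5:**
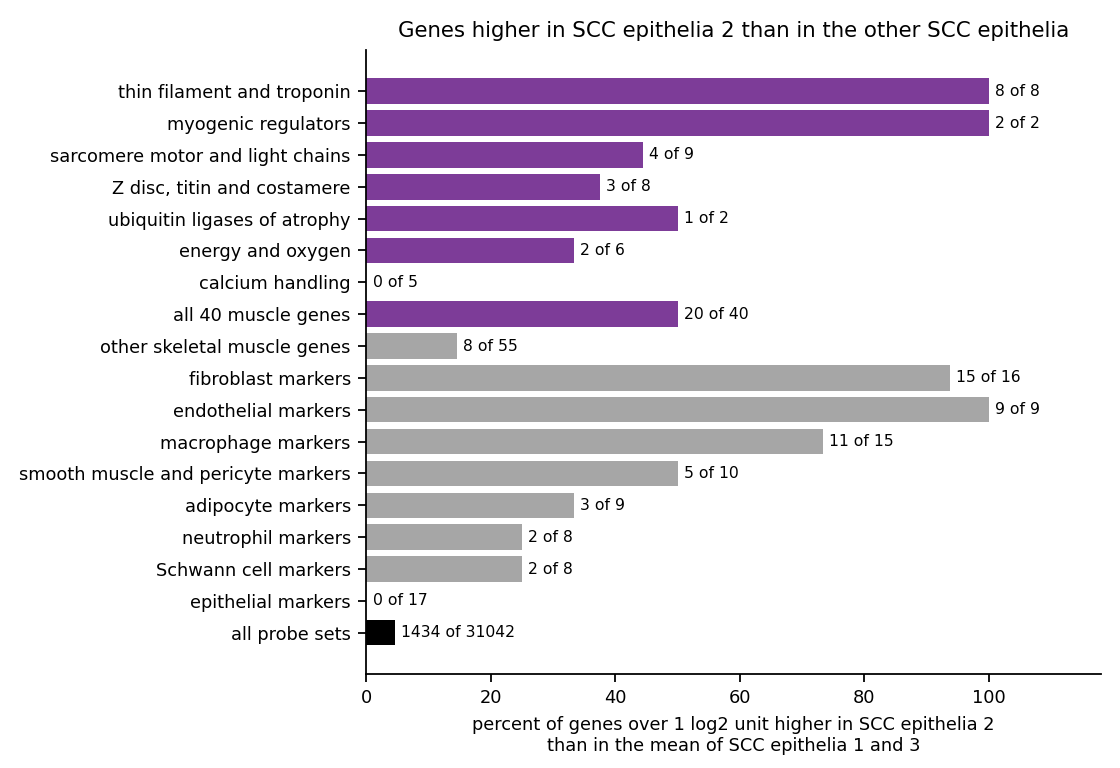
Percent of genes over 1 log2 unit higher in SCC epithelia 2 than in the mean of SCC epithelia 1 and 3 (horizontal axis) for the muscle genes by role, other gene lists and all probe sets (vertical axis), with counts at the bars. Thin filament genes reach 8 of 8, fibroblast markers 15 of 16, epithelial markers 0 of 17 and all probe sets 4.62%.

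Between the layers, the members were higher in fibroblasts than in epithelia on the deposited scale, by a median of 0.63 (normal samples), 1.25 (dysplasia) and 0.58 (SCC), against -0.15, -0.10 and -0.06 over all probe sets. Aligned on the spike-in controls these medians turned to -1.77, -2.09 and -1.13, against -2.55, -3.44 and -1.77 over all probe sets, so the members lay above all probe sets by 0.79, 1.34 and 0.64 under each alignment. In normal samples 18 of 40 were called higher in fibroblasts (45% against 27.7% of all probe sets) and 6 lower (15% against 35.7%). In dysplasia 27 were called higher (67.5% against 23%) and 2 lower (5% against 27.4%), and in SCC 15 higher (37.5% against 20.1%) and 1 lower (2.5% against 18.1%). Of 12 fast genes 8, 11 and 6 were called higher at the 3 stages, and of 7 slow genes 0, 0 and 0, while 4, 1 and 1 slow genes were called lower.

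Myod1 had the highest contrast between layers in dysplasia, at 8.65, 8.02 and 7.42 in dysplasia fibroblasts, against 3.29, 2.74 and 3.0018 in dysplasia epithelia (log2 change 5.02 ± 0.43, adjusted p = 3.43e-07). The log2 change of Myod1 was 3.79 in normal and 2.42 in SCC samples. Myl1 was at 9.56, 10.01 and 9.35 in normal fibroblasts, against 4.22, 6.07 and 4.28 in normal epithelia (log2 change 4.78 ± 0.99, adjusted p = 0.000615). Des had 2.78, 3.41 and 2.30 at the 3 stages, Ckm 2.79, 3.72 and 2.91, and both genes were called at all 3 stages. Tnnc2 was also called at all 3, with 2.55, 3.29 and 2.39. Acta1 had 3.01, 3.23 and 2.74, the normal value losing its call without normal epithelia 1 (adjusted p = 0.0538) and the SCC value without any of 14 single samples (0.0507 to 0.190). With spike-in alignment, Acta1 turned to -0.11 and Tnnc2 to -0.05 in dysplasia.

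Several slow genes were lower in fibroblasts. Myh7 was at 5.34, 5.75 and 4.94 in normal fibroblasts, against 7.87, 7.90 and 7.64 in normal epithelia (log2 change -2.46 ± 0.39, adjusted p = 6.48e-05). Myl3, the slow essential light chain, was at 6.08, 6.43 and 6.39 in normal fibroblasts, against 7.44, 7.52 and 7.16 in normal epithelia (log2 change -1.07 ± 0.19, adjusted p = 0.000128), with -1.02 in dysplasia and -0.61 in SCC samples, the last losing its call without SCC epithelia 3 or SCC fibroblasts 2 (adjusted p 0.0560 to 0.0582). For both genes every normal fibroblast sample lay below every normal epithelia sample. In SCC the count of calls was 10 without SCC fibroblasts 3 and 22 without SCC epithelia 2, against 16 with all samples.

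Whether a change with stage differed between the layers was tested directly. For dysplasia against normal, 5 members changed more upward in fibroblasts than in epithelia (12.5% against 2.20% of all probe sets), with Mb (difference 2.19, adjusted p = 0.00231) and Myh7 (2.20, 0.0380) the largest and Atp2a1, Tcap and Myoz1 the others. With means over the probe sets of a gene, Myh7 had 1.13 and was not called (adjusted p = 0.0769 in limma). For SCC against normal, 4 members did (10% against 9.39%), again Mb (1.71, 0.00235), Myh7, Myoz1 and Atp2a1. For SCC against dysplasia, Actn3 changed more downward in fibroblasts (-1.45, adjusted p = 0.0179), 1 of 40 (2.5%, against 0.0387% of all probe sets). These 3 tests share samples.

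Beyond the members, 55 of 59 further skeletal muscle genes on a list written for this comparison were measured. In dysplasia against normal fibroblasts 1 (1.82%, against 0.116% of all probe sets) was called higher, Cox8b, a muscle cytochrome oxidase subunit, at 8.28, 8.33 and 8.01 in dysplasia, against 6.36, 6.76 and 5.94 in normal fibroblasts (log2 change 1.85 ± 0.26, adjusted p = 0.0413), and the median of the 55 was 0.16. In SCC against dysplasia fibroblasts 2 (3.64%, against 0.322%) were called lower, Mybpc1, the slow myosin-binding protein C (-1.74 ± 0.32, adjusted p = 0.0343), and Cox8b (-1.30 ± 0.26, adjusted p = 0.0432), with a median of -0.29. In dysplasia against normal epithelia 1 was called higher (1.82%, against 7.0%) and 6 lower (10.9%, against 7.54%). In SCC against normal epithelia 1 was called higher (1.82%, against 12.6%) and 13 lower (23.6%, against 17.3%), the 1 higher being Tnnt2, the cardiac and embryonic troponin T, in both (2.59 ± 0.50, adjusted p = 0.0126; 3.13 ± 0.50, adjusted p = 0.00249).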

How the data were processed

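Each of the 18 arrays held 1 sample. The deposited table holds 1 linear intensity per probe set and array. RMA and Affymetrix Expression Console are listed, without versions, in the submitters' processing notes, and for the calculation the authors' methods refer to earlier work not used here. The intensities were converted to log2, 57 control probe sets were left out, and 31042 of 31099 were tested. No pseudocount was added, since the lowest deposited value was 1.

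Stages were compared within each layer on its 9 arrays, and layers and their interactions on all 18, with lmFit and eBayes of limma 3.58.1 in R 4.3.3 (statmod 1.5.0), Benjamini-Hochberg adjusted over all probe sets. With 3 samples a group, the smallest exact two-sided permutation p is 0.1, so none was used for calls. Code was tested on simulated data. The members, marker lists and tests were chosen with earlier results of these data known. Every member could be named, and of other lists up to 4 called genes per comparison by size of change and the first 3 markers.

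Sample numbers came from the titles. Same-numbered samples deviated together in SCC against dysplasia fibroblasts (correlations 0.321 to 0.592 over all probe sets), and in the other comparisons not every pair exceeded 0.1 over all probe sets. In SCC against dysplasia fibroblasts, differently numbered samples reached 0.352 over all probe sets. There 4 of 6 samples matched their own number best, and 6 of 6 did above the dim filter. Above the dim filter, every pair did in dysplasia against normal (0.122 to 0.321) and SCC against normal fibroblasts (0.180 to 0.362), so blocked values are given for all fibroblast comparisons. Alternatives of scaling and probe sets were quantile normalization, alignment on spike-in or hybridization controls, a filter on dim probe sets and means over probe sets. Those of the fit were array weights, a trended robust prior, other sets of arrays, the sample number as a block and leaving out samples. A further alternative was Student's t-test with Benjamini-Hochberg adjustment and no fold threshold (the adjusted t-test). Hybridization-control alignment and leaving out the third fibroblast samples, alone or with SCC epithelia 2, were chosen after seeing the data. Probe sets annotated to several genes (436) were tested but name no gene. Probe sets were named from the platform annotation as given, the 1 member under another symbol was found through RefSeq, and promoters came from RefSeq. Where other probe sets of a member gave clearly other values, examples stand with the results.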

Additional observations from a re-analysis of the deposited data

Results flagged for a closer look

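In these 10 cases the change with stage differed between fibroblasts and epithelia in limma's interaction test, with adjusted p-values over all probe sets, and no explanation was tested. For dysplasia against normal they were 12.5% of the members, against 2.20% of all probe sets called in that direction. For SCC against normal they were 10%, close to the 9.39% of all probe sets. For SCC against dysplasia they were 2.5%, against 0.0387%. For dysplasia against normal, the change in fibroblasts minus that in epithelia was 2.19 for Mb (adjusted p = 0.00231), 2.20 for Myh7 (0.0380), 1.31 for Atp2a1 (0.0104), 1.28 for Tcap (0.0317) and 1.24 for Myoz1 (0.0201). In Mb the change was 1.67 in fibroblasts and -0.53 in epithelia, and in Myh7 0.69 and -1.51. The call of Myh7 was lost without any of 10 single samples (adjusted p 0.0523 to 0.109), that of Tcap without any of 9 (0.0521 to 0.0904) and that of Myoz1 without normal epithelia 2, dysplasia epithelia 3 or dysplasia fibroblasts 2 (0.0515 to 0.0643).

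For SCC against normal, the difference was 1.71 for Mb (0.00235), 2.05 for Myh7 (0.0220), 1.21 for Myoz1 (0.00754) and 0.81 for Atp2a1 (0.0374). The call of Atp2a1 was lost without any of 9 single samples (0.0526 to 0.0840) and that of Myh7 without SCC fibroblasts 1 or 2 (0.0615 to 0.0647). For SCC against dysplasia, Actn3 had a difference of -1.45 (0.0179), with -1.31 in fibroblasts and 0.14 in epithelia. Its call was lost without dysplasia epithelia 3, dysplasia fibroblasts 2 or SCC fibroblasts 1 (0.0565 to 0.0609). With spike-in alignment, none of these 10 kept its call, and the Actn3 difference turned to 0.18.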

How the results depend on the processing

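Counts of called members follow, and a cause was not tested for any of them. For dysplasia against normal fibroblasts (1 as reported) the count was 0 aligned on spike-in controls, 3 aligned on hybridization controls and 3 with a trended robust prior. It was 23 with array weights, 7 in 1 fit of all 18 samples, 0 by the adjusted t-test and 26 without the third fibroblast samples. For SCC against normal fibroblasts (4) it was 0, 19, 17 and 0 with the spike-in and hybridization alignments, array weights and the t-test, 1 above the dim filter, where fewer probe sets were tested, and 10 without the third samples. For SCC against dysplasia fibroblasts (5) it was 0 with spike-in alignment, 2 above the filter, 30 with weights, 8 in 1 fit, 0 by the t-test and 24 without the third samples. Aligned on the hybridization controls this comparison also had 5, all higher, against 2 higher and 3 lower as deposited. For these fibroblast comparisons, the shares of all probe sets called without the third samples are given with the results.

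For dysplasia against normal epithelia (2) the count was 1 with spike-in alignment, 1 above the filter and 5 with weights, and for SCC against normal epithelia (6) it was 2 above the filter and 2 by the t-test. Between layers the filter left 9, 8 and 6 calls in normal, dysplasia and SCC samples (24, 29 and 16), and in SCC a fit of that stage alone or without the third fibroblast samples gave 10. With spike-in alignment the higher and lower calls were 2 and 28, 1 and 29, and 1 and 17, against 18 and 6, 27 and 2, and 15 and 1 as deposited, and on the hybridization controls 8 and 15, 10 and 12, and 9 and 3.

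For the interactions (5, 4 and 1 as reported, in the order dysplasia against normal, SCC against normal, SCC against dysplasia), spike-in alignment gave 0, 0 and 0, hybridization alignment 1 for the first and 6 for the last, the filter 2 and 0 for the same ones, weights 15, 11 and 16, and leaving out SCC epithelia 2 with the third fibroblast samples 14, 7 and 3, the last being 2 without the third fibroblast samples alone.

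With the sample number as a block, 8 members were called in dysplasia against normal fibroblasts and no other count moved by over 1.5 times. Leaving out 1 sample at a time gave 0 to 9 calls for dysplasia against normal fibroblasts (9 without dysplasia fibroblasts 3), 1 to 5 for SCC against normal (5 without normal fibroblasts 3) and 0 to 10 for SCC against dysplasia (10 without normal fibroblasts 3, 0 without dysplasia fibroblasts 2 or SCC fibroblasts 1). In epithelia it gave 2 to 5 (5 without SCC epithelia 2), 5 to 11 and 0 to 1 (11 and 1 without SCC epithelia 3), between layers 21 to 28, 25 to 30 and 10 to 22 (10 without SCC fibroblasts 3), and for the interactions 2 to 6, 2 to 5 and 0 to 3, in the orders used above. Signs turned on alignment for Myl2 in SCC against normal fibroblasts (0.066 on spike-in and 0.24 on hybridization controls), for Actn3, Mb and Tnni2 in SCC against dysplasia fibroblasts (0.020, 0.24 and 0.36 on spike-in controls), for Acta1 and Tnnc2 between layers in dysplasia (-0.11 and -0.049) and for the Actn3 interaction (0.18). With 3 arrays per group, small changes of dim genes cannot be resolved.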

Other observations

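Among the 55 other skeletal muscle genes, 11 were called higher (20%, against 27.7% of all probe sets) and 19 lower (34.5%, against 35.7%) in fibroblasts against epithelia of normal samples. In dysplasia 17 were higher (30.9%, against 23%) and 10 lower (18.2%, against 27.4%), and in SCC 11 higher (20%, against 20.1%) and 8 lower (14.5%, against 18.1%). Of the members with a second probe set, Casq2 gave 1.65 with it and -0.85 with the one used for normal fibroblasts against normal epithelia, so its direction between layers rests on the choice of probe set. For Tnnt3 the second probe set gave -0.39 in dysplasia against normal fibroblasts, against 0.67 for the one used.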
